A study of Mus musculus with 4 samples.

Results

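The cells described here are T cells in which a single beta chain was read together with 2 different productive alpha chains. They were picked from the receptor contig tables: each barcode had exactly 1 productive beta (TRB) contig and exactly 2 productive alpha (TRA) contigs, and is called a dual-alpha cell. There were 220 such cells among 3478 barcodes with any receptor contig. The 16-week library held 102 of 1776 and the 8-week library 118 of 1702. Barcodes with 1 productive TRB and exactly 1 productive TRA, called single-alpha cells, numbered 1081 at 16 weeks and 1042 at 8 weeks. The contig counts chose the members, so the presence of a second alpha is not a result, and the shares below are descriptions of what these libraries held.

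The T cells came from pancreatic islets of female NOD mice, an inbred strain that develops autoimmune diabetes spontaneously, and all donors were labelled pre-diabetic. One group was 16 weeks old and the other 8 weeks old. Islet cells positive for the TCR beta chain and negative for the dead-cell dye DAPI were sorted, and droplet-based 5′ reagents gave 1 messenger RNA library and 1 receptor library for each age. The sources used here do not say how many mice went into a library. With 1 library of each kind for an age, no p-value was computed, and every interval given is a 95% interval that covers counting error only.

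A T cell receptor pairs a beta chain with an alpha chain, each built by joining V and J gene segments (and D segments in beta) during thymic development. Productive rearrangement of beta on one chromosome largely stops rearrangement on the other, a rule known as allelic exclusion. The alpha locus is much less strict: both chromosomes rearrange over the same period, and each can go on joining upstream V segments to J segments farther downstream until the cell is positively selected or dies. Some mature T cells therefore carry a pair of in-frame alpha transcripts. On mouse chromosome 14 the J segments run from Traj61, nearest the V segments, down to Traj1, nearest the constant gene Trac. In the mm10 assembly with GENCODE M21 they span chr14:54155005-54218842, and all 60 annotated J segments stand in strictly descending order of their numbers, so the number in a segment's name gives its place along the locus.

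The clearest cases were clones, meaning cells with the same TRB V segment, J segment and CDR3 nucleotides, in which more than 1 barcode carried the same pair of alphas. Below are the CDR3 coding sequences, 5′ to 3′, of the 3 clones of this kind with 3 cells each, 1 from the 16-week library and 2 from the 8-week library. Capitals mark bases found neither in the end of the annotated V segment nor in the start of the J segment, so in a beta chain they include any D segment bases.
16 weeks, TRBV5 TRBJ1-4, beta: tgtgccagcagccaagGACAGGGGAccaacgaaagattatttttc
16 weeks, TRBV5 TRBJ1-4, alpha TRAV10N TRAJ27: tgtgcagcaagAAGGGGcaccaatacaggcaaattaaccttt
16 weeks, TRBV5 TRBJ1-4, alpha TRAV7D-5 TRAJ32: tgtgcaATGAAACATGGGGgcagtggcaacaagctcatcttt
8 weeks, TRBV13-1 TRBJ2-5, beta: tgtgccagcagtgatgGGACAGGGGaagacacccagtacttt
8 weeks, TRBV13-1 TRBJ2-5, alpha TRAV13-2 TRAJ11: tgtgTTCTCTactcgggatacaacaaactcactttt
8 weeks, TRBV13-1 TRBJ2-5, alpha TRAV16N TRAJ15: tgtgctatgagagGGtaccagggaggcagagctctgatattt
8 weeks, TRBV19 TRBJ2-7, beta: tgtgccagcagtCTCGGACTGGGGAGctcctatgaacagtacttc
8 weeks, TRBV19 TRBJ2-7, alpha TRAV5-4 TRAJ53: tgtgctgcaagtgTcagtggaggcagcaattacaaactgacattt
8 weeks, TRBV19 TRBJ2-7, alpha TRAV6-7-DV9 TRAJ53: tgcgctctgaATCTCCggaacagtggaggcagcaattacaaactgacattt

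In the TRBV5 TRBJ1-4 clone all 3 cells carried both alphas. The TRAV10N TRAJ27 chain had 3, 2 and 14 UMIs in the 3 cells, where a UMI is a molecular tag by which each captured transcript is counted once, and the TRAV7D-5 TRAJ32 chain had 2, 4 and 6 UMIs in the same cells. Which of them had more UMIs therefore differed between cells of one clone. All 3 cells of the TRBV13-1 TRBJ2-5 clone also carried both alphas: TRAV13-2 TRAJ11 had 12, 4 and 12 UMIs and TRAV16N TRAJ15 had 5, 5 and 9. In the TRBV19 TRBJ2-7 clone, 2 cells had both alphas, with 8 and 7 UMIs of TRAV5-4 TRAJ53 and 7 and 8 UMIs of TRAV6-7-DV9 TRAJ53. The remaining barcode had only the TRAV6-7-DV9 chain, with 5 UMIs. That clone's alphas share the J segment TRAJ53 and differ in V segment and in the joining bases shown in capitals above. In each of the 3 clones at least 1 cell had a UMI of Cd4, the co-receptor of helper T cells, and none had a UMI of Cd8a, Cd8b1 or Foxp3.

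Dual-alpha cells made up 8.62% (7.08 to 10.4, Clopper-Pearson interval, 102 of 1183) of the dual-alpha and single-alpha cells at 16 weeks and 10.2% (8.49 to 12.1, 118 of 1160) at 8 weeks. The intervals overlap. Counting each clone once gave 8.78% at 16 weeks and 10.1% at 8 weeks. The share increased with how much RNA a barcode yielded. In bins bounded at 2000, 3000, 4000 and 6000 RNA UMIs, from low to high, it was 4.27%, 4.17%, 9.52%, 15.9% and 19.1% at 16 weeks, and 7.10%, 6.17%, 10.5%, 11.1% and 19.8% at 8 weeks. It was less graded with the number of TRB UMIs: 6.81%, 7.69% and 7.27% for 1 to 2, 3 to 5 and 6 to 10 TRB UMIs at 16 weeks, against 12.9% for 11 or more. The same bins at 8 weeks gave 8.97%, 8.59%, 7.58% and 14.5%.

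Dual-alpha barcodes were richer in RNA than single-alpha barcodes. The median was 3790 RNA UMIs and 1438 genes in the 102 dual-alpha cells at 16 weeks, against 2927 UMIs and 1128 genes in 1071 single-alpha cells that passed the cell filter. At 8 weeks the medians were 3954 UMIs and 1540 genes in 118 dual-alpha cells, against 2989 UMIs in 1038 single-alpha cells. Barcodes with 2 or more productive TRB contigs, which the rule leaves out, were richer still, with medians of 6586 UMIs at 16 weeks and 7592 at 8 weeks. UMIs of Cd4 together with Cd8a or Cd8b1, the co-receptors of separate mature lineages, were found in 6.86% of dual-alpha cells, 1.87% of single-alpha cells and 25.1% of barcodes with 2 or more TRB at 16 weeks. At 8 weeks the shares were 6.78%, 2.31% and 22.3%. With every cell thinned to 1700 UMIs, drawn at random from its own, the shares were 4% of dual-alpha and 0.293% of single-alpha cells at 16 weeks, and 3.51% and 0.414% at 8 weeks, on 4 dual-alpha cells in each library. The part played by barcodes that hold more than 1 cell was not tested, and each later result is set beside these depths where they bear on it.

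**Figure D1:**
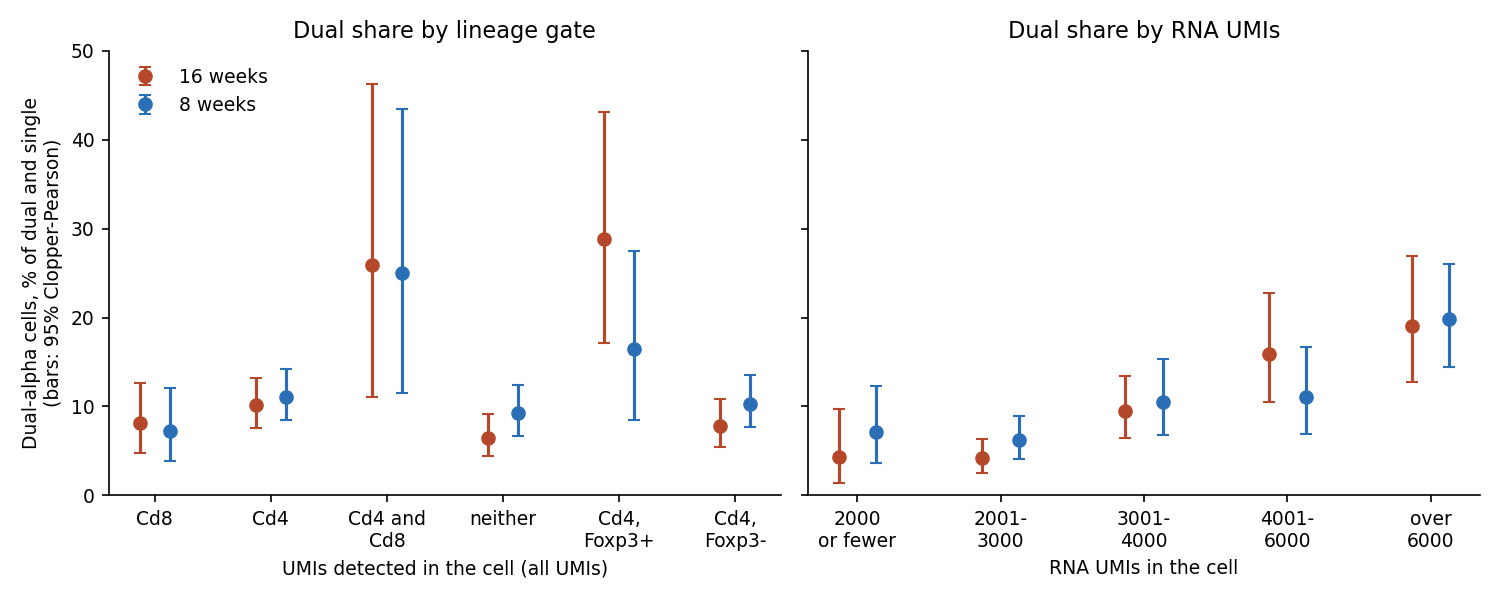
Dual-alpha cells as a percent of dual-alpha and single-alpha cells (vertical axis, bars are 95% Clopper-Pearson intervals) by co-receptor and Foxp3 UMIs (left panel) and by RNA UMIs of the barcode (right panel), at 16 weeks (red) and 8 weeks (blue). The share is 19.1% and 19.8% in barcodes over 6000 UMIs, and 25.9% and 25% in cells with UMIs of both Cd4 and Cd8.

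The 2 alphas of a dual-alpha cell were each read with at least 2 UMIs. Called first and second by their UMIs, they had medians of 5 UMIs (quartiles 4 and 7) and 3 UMIs (quartiles 2 and 4) at 16 weeks, and the only alpha of single-alpha cells had a median of 3 (quartiles 2 and 5). At 8 weeks the medians were 6 (quartiles 4 and 8) and 3 (quartiles 2 and 4), against 3 (quartiles 2 and 6) in single-alpha cells. The median of second alphas thus equalled that of the sole alpha of other cells, but the 2 sets have different lowest counts. No second alpha had fewer than 2 UMIs, while some sole alphas had only 1, so their medians and means are not a like comparison. The mean of second alphas was lower, 3.30 against 3.92 UMIs at 16 weeks and 3.84 against 4.59 at 8 weeks. The first alpha was ranked first by its UMIs, so its higher median is not a result. These values were not set at equal RNA depth, and dual-alpha barcodes were richer in RNA. Summed over both alphas, the medians were 8 and 9 UMIs at 16 and 8 weeks. Beta chain UMIs were also higher: medians of 7 in dual-alpha and 6 in single-alpha cells at 16 weeks, and of 9.5 and 7 at 8 weeks. The ratio of second to first alpha UMIs had a median of 0.667 in both libraries and was at least 0.5 in 77 of 102 cells (75.5%) and 89 of 118 (75.4%).

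The lowest second alpha in either library had 2 UMIs, which 41.2% of dual-alpha cells had at 16 weeks and 37.3% at 8 weeks. Among single-alpha cells, 18.5% and 14.1% had an alpha with only 1 UMI, so the files list chains at 1 UMI but list none as a second productive alpha in these cells. A second alpha of at least 5 UMIs was found in 14 cells at 16 weeks and 27 at 8 weeks. Asking for at least 3 UMIs of the second alpha leaves 60 and 74 dual-alpha cells. The identical second alpha, by V, J and CDR3 nucleotides, also appeared in a barcode with another beta chain for 3 dual-alpha cells at 16 weeks and 9 at 8 weeks, and the identical first alpha for 7 and 6. The libraries shared 0 dual alpha pairs, 5 of their RNA barcodes and 3 receptor barcodes, with 0 of these in the same clone.

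**Figure D2:**
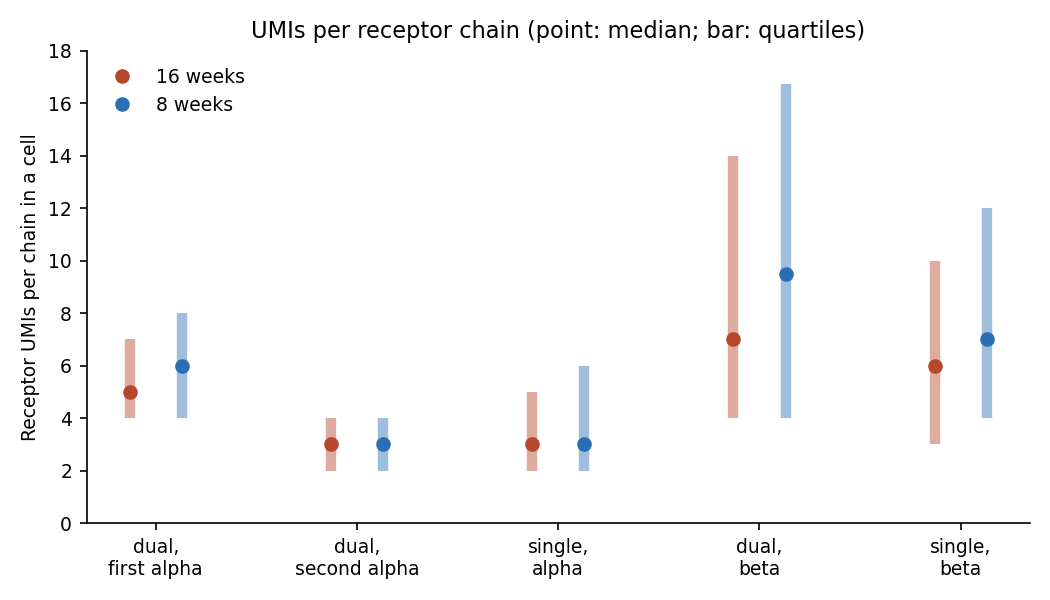
Receptor UMIs per chain and cell (vertical axis; points are medians and bars run between the quartiles) for both alphas of dual-alpha cells, the alpha of single-alpha cells, and the beta chains, at 16 weeks (red) and 8 weeks (blue). The second alpha of dual-alpha cells and the sole alpha of single-alpha cells have the same median of 3 UMIs in both libraries. No second alpha had fewer than 2 UMIs, while some sole alphas had 1.

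Both alphas of a cell tended to use J segments from the same stretch of the locus. The J numbers of first and second alpha correlated across dual-alpha cells with Spearman's rho of 0.40 (Pearson's r of 0.41, n = 102) at 16 weeks and of 0.57 (Pearson's r of 0.57, n = 118) at 8 weeks. These are descriptions over cells that share a library. The median distance within a cell was 8 segments at 16 weeks and 6 at 8 weeks, against 14 and 15 between alphas taken from different dual-alpha cells. Segments lay within 5 of each other in 36.3% of dual-alpha cells at 16 weeks, against 21.1% of pairs from different cells. At 8 weeks the shares were 48.3% within cells and 19.5% between cells. Distances beyond 20 segments were seen in 17.6% and 13.6% of dual-alpha cells at 16 and 8 weeks, against 33.2% and 35.3% of pairs from different cells.

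Divided by number into J segments 41 to 61 (near the V segments), 21 to 40 and 1 to 20 (near the constant gene), both alphas lay in the same division in 55 of 102 cells (53.9%) at 16 weeks and 64 of 118 (54.2%) at 8 weeks. Opposite ends were joined in 5 and 6 cells. The alphas shared the very same J segment in 5 and 10 cells, and without these cells rho was 0.35 at 16 weeks and 0.52 at 8 weeks. No cell had the same V segment in both alphas. V segment positions along chr14:52427928-53977678 showed no such pairing: rho was -0.05 at 16 weeks and 0.09 at 8 weeks, and the median distance between V segments of a cell was 387 kb and 400 kb.

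The same J pairing was present in single-alpha cells that also had a non-productive alpha contig. Only full-length non-productive contigs with a V and a J segment called were counted. Among single-alpha cells, 142 at 16 weeks (13.1%) and 143 at 8 weeks (13.7%) had exactly 1 of these next to the productive alpha. Whether it came from the cell's other allele was not tested. The J numbers of the productive and the non-productive contig correlated with rho of 0.61 and 0.57, with a median distance of 8 segments in both libraries. In barcodes with 2 or more TRB and 2 productive alphas, rho was 0.35 (n = 60) at 16 weeks and 0.20 (n = 66) at 8 weeks.

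The pairing was closest in dual-alpha barcodes with little RNA. With up to 3000 RNA UMIs, rho was 0.60 (n = 25) at 16 weeks and 0.81 (n = 36) at 8 weeks. Above 3000 and up to 6000 UMIs it was 0.44 (n = 52) and 0.59 (n = 43), and above 6000 UMIs 0.22 (n = 25) and 0.40 (n = 39). The median distance in these classes was 7, 7.5 and 11 segments at 16 weeks and 5, 6 and 10 at 8 weeks. In the 7 and 8 dual-alpha cells with UMIs of Cd4 and of Cd8a or Cd8b1, rho was 0.11 and 0.05 and the median distance 20 and 16 segments. Whether barcodes with RNA of more than 1 cell account for the weaker pairing at high depth was not tested. Pairing did not vary in order with the second alpha's UMIs: rho was 0.41, 0.36 and 0.41 for 2, 3 to 4 and 5 or more UMIs at 16 weeks, and 0.45, 0.67 and 0.60 at 8 weeks.

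**Figure D3:**
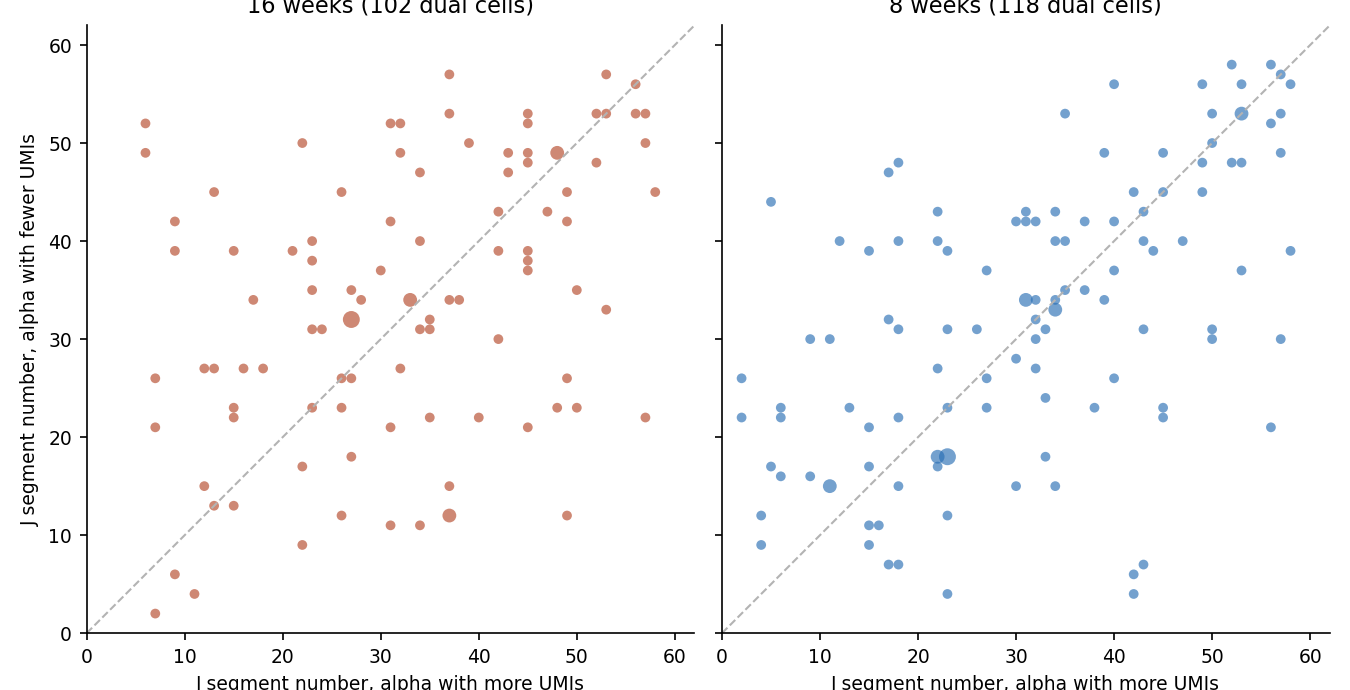
J segment number of the alpha with more UMIs (horizontal) and of the alpha with fewer UMIs (vertical) in each dual-alpha cell, at 16 weeks (left, 102 cells) and 8 weeks (right, 118 cells). Larger points are several cells at the same pair, the dashed line marks equal numbers, and high numbers lie nearest the V segments. Points gather along the line, with median distances of 8 and 6 segments.

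Which segments the dual-alpha cells used differed little from single-alpha cells. J segments 41 to 61 made up 33.8% (27.4 to 40.8) of the 204 alphas of dual-alpha cells and 36.8% (33.9 to 39.8) of those of single-alpha cells at 16 weeks. At 8 weeks they made up 30.1% (24.3 to 36.4) of 236 alphas in dual-alpha and 36.3% (33.4 to 39.3) in single-alpha cells. J segments 1 to 20 made up 18.1% of alphas in dual-alpha and 17.6% in single-alpha cells at 16 weeks, and 25% (19.6 to 31.0) and 19.7% (17.3 to 22.2) at 8 weeks. The rearrangement of TRAV11 with TRAJ18, which marks invariant natural killer T cells in mice, was found as the second alpha of 1 dual-alpha cell in each library, 0.490% of 204 alphas at 16 weeks and 0.424% of 236 at 8 weeks. In single-alpha cells it was 0 of 1081 alphas at 16 weeks, which allows up to 0.278%, and 5 of 1042 (0.480%, 0.156 to 1.12) at 8 weeks. The combination of TRAV1 with TRAJ33, which marks mucosal-associated invariant T cells, was found in 0 of 204 and 0 of 236 alphas, which allows shares up to 1.47% and 1.27%. CDR3 lengths averaged 13.5 ± 1.22 codons for first alphas, 13.8 ± 1.52 for second alphas and 13.6 ± 1.53 for single-alpha cells at 16 weeks (SD over cells). The 8-week averages were 13.6 ± 1.55, 14 ± 1.61 and 13.5 ± 1.53 codons, and all these differences are smaller than the spread between cells.

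Most dual-alpha cells were the only cell of their clone. At 16 weeks 9 of 102 (8.82%, 4.11 to 16.1) belonged to a clone of more than 1 cell, against 93 of 1081 single-alpha cells (8.60%, 7 to 10.4). At 8 weeks 25 of 118 (21.2%, 14.2 to 29.7) did, against 170 of 1042 (16.3%, 14.1 to 18.7). Among those dual-alpha cells, 3 of 9 at 16 weeks (33.3%, 7.49 to 70.1) and 8 of 25 at 8 weeks (32.0%, 14.9 to 53.5) had another cell of the clone with both of their alphas. These came from 1 of 7 clones at 16 weeks and 4 of 19 at 8 weeks. Dual-alpha cells of 1 clone that share both alphas each count for the other. They are therefore not independent, which the intervals do not allow for.

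Beside the 3 clones whose sequences are printed above, 2 clones of the 8-week library repeated a pair of alphas. A clone with TRBV29 and TRBJ2-5 had 2 cells, both with TRAV6-7-DV9 TRAJ56 (8 and 4 UMIs) and TRAV7D-4 TRAJ58 (3 and 5 UMIs). A second clone with TRBV19 and TRBJ2-7, of another CDR3, had TRAV6-3 TRAJ50 and TRAV5-4 TRAJ53 in both of its cells, 1 of which carried 3 productive alphas. The J segments of the repeated pairs lay 5, 4, 0, 3 and 2 segments apart in the 5 clones. Their cells had 1894 to 9934 RNA UMIs, and none of the cells had a UMI of Cd8a or Cd8b1.

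The other clones shared 1 alpha at most. Taking each dual-alpha cell with each other cell of its clone gave 15 pairings at 16 weeks, of which 6 shared both alphas, 7 shared 1 and 2 shared neither. The 74 pairings at 8 weeks split into 11, 48 and 15. A pair of dual-alpha cells in the same clone is counted from each side. All 6 pairings that shared both alphas at 16 weeks came from 1 clone, and the 11 at 8 weeks from 4 clones. Where 1 alpha was shared it was the first alpha of the dual-alpha cell in 2 pairings and the second in 5 at 16 weeks, and the first in 36 and the second in 12 at 8 weeks. Of the 36, 11 came from the 1 dual-alpha cell of the largest clone, described next. The largest clone, TRBV13-2 with TRBJ2-7, had 12 cells, and the 1 dual-alpha cell shared TRAV21-DV12 TRAJ57, at 10 UMIs, with all 11 others. Its second alpha, TRAV14N-2 TRAJ30 at 2 UMIs, was in none of them. That barcode had 9987 RNA UMIs, against a median of 4644 in the other cells. The dual-alpha cell of an 11-cell TRBV15 TRBJ2-5 clone shared its first alpha with 5 cells and its second, at 5 UMIs, with none, and had 23120 RNA UMIs against a median of 4347. In an 8-cell TRBV15 TRBJ2-7 clone both dual-alpha cells carried TRAV16N TRAJ23 beside a different partner in each, at 5290 and 27468 RNA UMIs, and neither partner was in another cell. A second alpha missed at low UMI counts in the other cells, or added by a second cell in the barcode, cannot be told apart from these values.

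**Figure D4:**
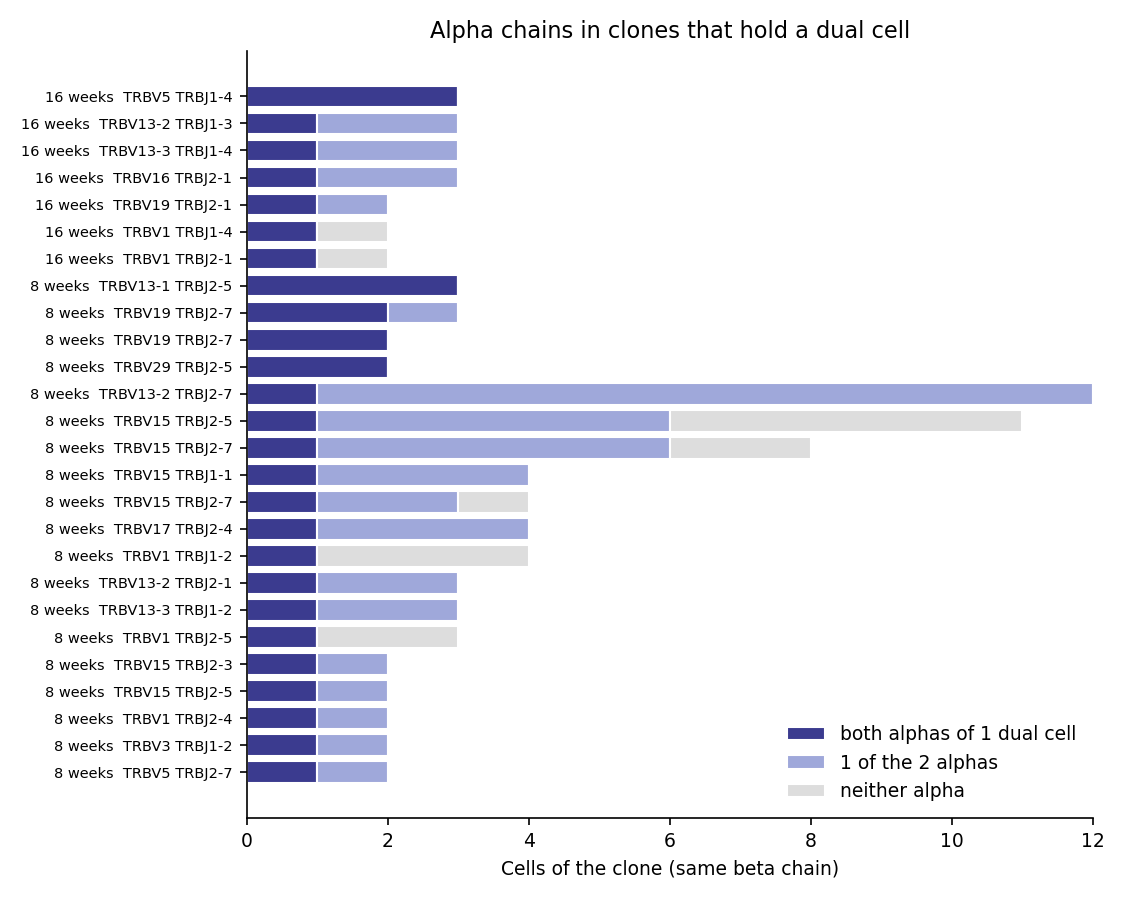
Cells (horizontal axis) of each clone of 2 or more cells that holds a dual-alpha cell, 16 weeks above 8 weeks, split into cells that carry both alphas of 1 dual-alpha cell of the clone (dark), 1 of the 2 alphas (light) and neither (grey). In 1 of 7 clones at 16 weeks and 4 of 19 at 8 weeks the dark part covers more than 1 cell.

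Lineage was read from the co-receptor genes Cd4, Cd8a and Cd8b1 and from Foxp3, which encodes the transcription factor of regulatory T cells. Dual-alpha cells were 17 of 210 Cd8-gated cells (8.10%, 4.79 to 12.6) and 48 of 474 Cd4-gated cells (10.1%, 7.56 to 13.2) at 16 weeks, a difference of -2.03 percentage points (Newcombe interval, -6.29 to 3.06). At 8 weeks they were 13 of 180 Cd8-gated cells (7.22%, 3.90 to 12.0) and 57 of 513 Cd4-gated cells (11.1%, 8.52 to 14.2), a difference of -3.89 points (-8.11 to 1.44). Both intervals include 0. With cells thinned to 1700 UMIs before gating, the differences were 0.35 points (-4.74 to 5.95) and -2.50 points (-7.33 to 3.08). Cells without a UMI of any of the 3 co-receptor genes had shares of 6.49% at 16 weeks and 9.28% at 8 weeks. J numbers correlated in both lineages: rho was 0.56 (n = 17) in Cd8-gated and 0.37 (n = 48) in Cd4-gated dual-alpha cells at 16 weeks, and 0.59 (n = 13) and 0.51 (n = 57) at 8 weeks. Median distances at 16 and 8 weeks were 11 and 10 segments in Cd8-gated and 7 and 5 in Cd4-gated dual-alpha cells. Segments lay within 5 of each other in 29.4% and 23.1% of Cd8-gated and 45.8% and 50.9% of Cd4-gated dual-alpha cells. For pairs from different dual-alpha cells the shares were 21.1% and 19.5%.

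Among Cd4-gated cells the dual share was higher where Foxp3 was detected, which was not seen at equal depth, where few cells kept a Foxp3 UMI. Dual-alpha cells were 15 of 52 Foxp3-positive cells (28.8%, 17.1 to 43.1) and 33 of 422 Foxp3-negative cells (7.82%, 5.44 to 10.8) at 16 weeks, a difference of 21 points (10.1 to 34.6). At 8 weeks they were 11 of 67 Foxp3-positive (16.4%) and 46 of 446 Foxp3-negative cells (10.3%), a difference of 6.10 points (-1.58 to 17.0). Foxp3 gives few UMIs, and the Foxp3-positive dual-alpha cells had a median of 6555 RNA UMIs, against 4354 in Foxp3-positive single-alpha cells at 16 weeks, and 5778 against 4439 at 8 weeks. After thinning to 1700 UMIs, 1 of 11 Foxp3-positive and 24 of 272 Foxp3-negative cells were dual-alpha at 16 weeks, a difference of 0.27 points (-8.19 to 29.1). At 8 weeks 0 of 19 were, which allows a share of up to 15.8%, against 31 of 296 (difference -10.5 points, -14.5 to 6.61). Over all kept T cells, not only Cd4-gated ones, thinning left more cells: 4 of 54 Foxp3-positive (7.41%, 2.06 to 17.9) and 96 of 1069 Foxp3-negative cells (8.98%, 7.33 to 10.9) were dual-alpha at 16 weeks, and 8 of 54 (14.8%, 6.62 to 27.1) and 106 of 1026 (10.3%, 8.54 to 12.4) at 8 weeks. With cells over 6000 RNA UMIs left out instead, the 16-week difference was 13.7 points (2.69 to 30.4).

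Seen from the other side, Foxp3 was detected in 31.3% of dual-alpha and 8.69% of single-alpha Cd4-gated cells at 16 weeks, and in 28.0% of Cd4-gated barcodes with 2 or more TRB. At 8 weeks the shares were 19.3%, 12.3% and 34.8%. In Cd8-gated cells, which should lack Foxp3, it was detected in 1 of 17 dual-alpha and 3.63% of single-alpha cells at 16 weeks, at medians of 3668 and 3357 RNA UMIs, against 4249 and 3149 in the Cd4-gated classes. At 8 weeks it was detected in 0 of 13, which allows up to 23.1%, and in 2.40%, at medians of 3819 and 3507 UMIs, against 5290 and 3301 in the Cd4-gated classes. Other genes of regulatory T cells were detected in Foxp3-positive cells of both classes. Of the 15 Foxp3-positive dual-alpha cells of the 16-week library, 14 had a UMI of Ikzf2, which encodes the transcription factor Helios, 14 of the inhibitory receptor gene Ctla4 and 7 of the interleukin-2 receptor gene Il2ra. Of the 37 Foxp3-positive single-alpha cells, 32, 27 and 13 had a UMI of these genes. At 8 weeks 7, 6 and 2 of 11 Foxp3-positive dual-alpha cells did, and 45, 33 and 19 of 56 Foxp3-positive single-alpha cells. The depths of these classes differ as given above.

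Expression was compared at equal depth, with each cell thinned to 1700 UMIs and the UMIs summed over 100 dual-alpha and 1023 single-alpha cells at 16 weeks and over 114 and 966 at 8 weeks. A gene was tested where both classes together had at least 200 UMIs, and called where the levels in CPM (counts per 1000000 of the summed UMIs) differed by more than 1.5-fold. At 16 weeks 36 of 1111 genes were called higher in dual-alpha cells (3.24%) and 27 lower (2.43%). At 8 weeks 24 of 1138 were called higher (2.11%) and 23 lower (2.02%). These calls depended on the random draw. A second draw gave 21 higher and 23 lower at 16 weeks, sharing 7 and 7 genes with the first, and 19 and 26 at 8 weeks, sharing 4 and 7. The mean over all draws, in which each cell's UMIs are scaled to 1700 with nothing drawn, was therefore added after the data were seen. It called 10 (0.897%) and 8 genes (0.717%) at 16 weeks and 4 (0.355%) and 9 (0.798%) at 8 weeks.

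With the first draw, 4 of 1051 genes tested in both libraries were called higher in both (0.381%) and 2 lower in both (0.19%), and none were called in opposite directions. The 6 genes are named for their values. Ctla4 and Tigit encode inhibitory receptors, Tnfrsf4 the co-stimulatory receptor OX40 and Lgals1 the lectin galectin-1. Btg2 encodes an anti-proliferative factor, and Nr4a1 the receptor-induced nuclear receptor Nur77. The second draw and the mean over all draws use the same cells as the first, so a sign kept there is not independent support. With the second draw and with the mean over all draws, none of these 6 was past 1.5-fold in both libraries. Their signs were kept there: the mean over all draws gave log2 ratios at 16 and 8 weeks of 0.66 and 0.46 for Ctla4, 0.87 and 0.42 for Tigit, 0.52 and 0.62 for Tnfrsf4, 0.92 and 0.48 for Lgals1, -0.42 and -0.50 for Btg2 and -0.37 and -0.52 for Nr4a1. With the first draw a single cell gave 33.3% and 17.9% of the Ctla4 UMIs of dual-alpha cells at 16 and 8 weeks. The highest cell gave 33.3% and 25% for Nr4a1, 15.8% and 21.3% for Tnfrsf4 and 16.1% and 13.7% for Tigit. For Btg2 the shares were 12.5% and 12%, and for Lgals1 11.9% and 5.88%. By the mean over all draws Cd200, which encodes a glycoprotein with inhibitory function found on follicular helper cells, was the only gene past 1.5-fold in both libraries (0.094% of 1064). Its log2 ratios were 0.72 and 0.65. With the first draw they were 0.10 (-0.72 to 0.77) at 16 weeks, below the minimum of 200 UMIs, and 0.53 (0.02 to 0.97) at 8 weeks.

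**Figure D5:**
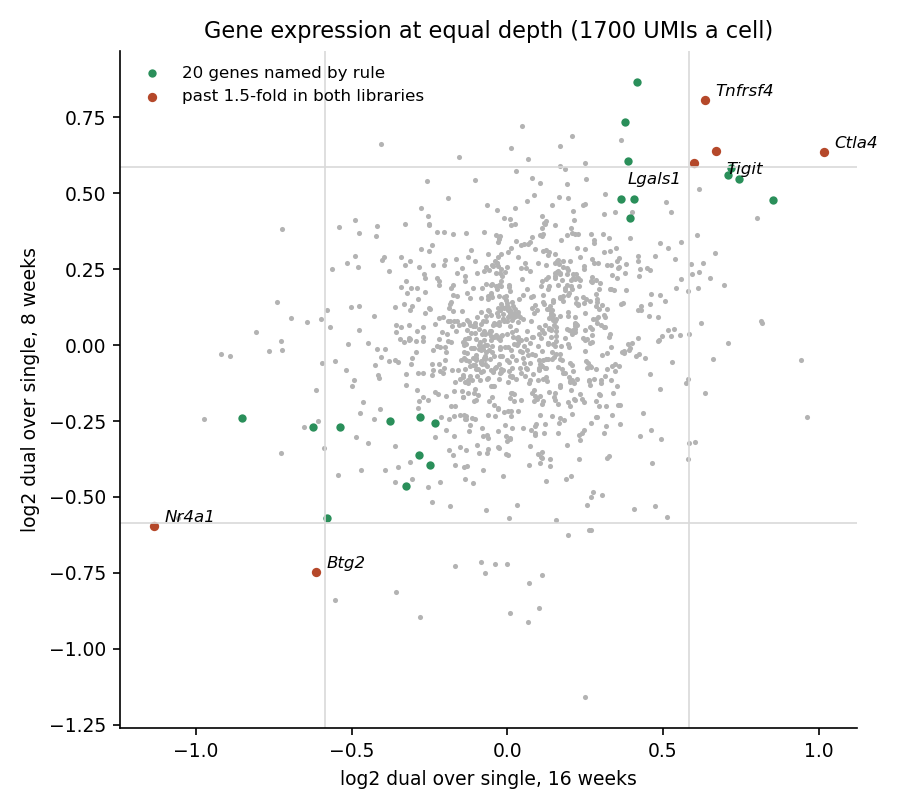
Log2 ratio of dual-alpha over single-alpha cells at 16 weeks (horizontal) and 8 weeks (vertical) for the 1051 genes tested in both libraries, with 1 draw of 1700 UMIs a cell. Grey lines mark 1.5-fold, green points are the 20 genes named by rule and red points the 6 genes past 1.5-fold in both libraries. The 2 libraries gave the same sign for 56.1% of genes.

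The rule for named genes took those whose smaller ratio of the 2 libraries was largest, with no cell giving over 10% of the dual-alpha UMIs. It gave as higher Mrpl18, Anxa5, Cbx3, Sec11c, Polr2g, S100a13, Il2rb, Capns1, Slamf6 and Higd2a, and as lower Srsf7, Klf2, Eif4b, Tap1, Gmfg, Hspa5, Cdc37, Lef1, Pak2 and AY036118. By the mean over all draws 9 of the 10 higher genes lay above 0 in both libraries and 8 of the 10 lower genes below 0 in both, and none was past 1.5-fold in both. That mean uses the same cells as the draw that picked these genes for their signs, so kept signs are not independent support. Tap1 then had log2 ratios of 0.10 and 0.02, Hspa5 0.02 and -0.07 and Srsf7 -0.01 and -0.12. The ratios of Polr2g, an RNA polymerase subunit gene, show how far a draw can carry a gene: 0.42 and 0.87 with the first draw, -0.20 and -0.62 with the second and -0.11 and 0.02 as the mean. Klf2, which encodes a transcription factor of naive and recirculating T cells, had 812 and 1021 CPM in dual-alpha and single-alpha cells at 16 weeks and 439 and 608 CPM at 8 weeks. Its log2 ratios were -0.33 (-0.59 to -0.08) and -0.46 (-0.81 to -0.15), and -0.53 and -0.42 as the mean over all draws. Lef1, a transcription factor gene of naive and stem-like T cells, had 318 and 578 CPM at 16 weeks and 284 and 338 CPM at 8 weeks, with log2 ratios of -0.85 (-1.29 to -0.47) and -0.24 (-0.68 to 0.15), and -0.77 and -0.30 as the mean. Slamf6, a receptor gene used as a marker of progenitor-like T cells, had log2 ratios of 0.38 (-0.31 to 0.96) and 0.73 (0.21 to 1.20), and 0.36 and 0.33 as the mean. Annexin A5, encoded by Anxa5, had log2 ratios of 0.71 (0.14 to 1.20) and 0.56 (0.04 to 1.02), and 0.38 and 0.49 as the mean.

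Most tested naive and stem-like genes had log2 ratios below 0, and few were called. With the first draw 2 of 11 tested members were called lower and 0 higher at 16 weeks, and 3 of 10 lower and 1 higher at 8 weeks. Of all tested genes, 2.43% were called lower and 3.24% higher at 16 weeks, and 2.02% and 2.11% at 8 weeks. In the same draw 7 of 11 tested members lay below 0 at 16 weeks and 9 of 10 at 8 weeks, with medians of -0.06 and -0.34, where the median of all tested genes was 0.03 and 0.04. By the mean over all draws 9 of 11 and 9 of 10 lay below 0, with medians of -0.32 and -0.47 against 0.04 for all genes in both libraries. Il7r, the interleukin-7 receptor gene, then had -0.32 and -0.78 on the log2 scale, and Ccr7, the gene of a chemokine receptor that guides T cells to lymph nodes, -0.36 and -0.52. The list as a whole summed to 3029 CPM in dual-alpha and 3585 CPM in single-alpha cells at 16 weeks, and to 2121 and 2737 CPM at 8 weeks. Within Cd4-gated cells 3 of 5 tested members were below 0 at 16 weeks, all 3 called lower, and 1 of 2 at 8 weeks, with medians of -0.59 and -0.16. Of all genes tested within Cd4-gated cells, 11 of 452 were called higher (2.43%) and 10 lower (2.21%) at 16 weeks, and 8 of 489 higher (1.64%) and 11 lower (2.25%) at 8 weeks.

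Genes of exhaustion, a state of chronically stimulated T cells, lay on the higher side. By the first draw all 3 tested members were above 0 at 16 weeks and 6 of 7 at 8 weeks, with medians of 0.67 and 0.44. The list summed to 1247 CPM in dual-alpha and 912 CPM in single-alpha cells at 16 weeks, and to 1569 and 1258 CPM at 8 weeks. By the mean over all draws 5 of 5 and 5 of 6 members were above 0, with medians of 0.72 and 0.44. Lag3, an inhibitory receptor gene, had log2 ratios of 0.40 (-0.11 to 0.85) and 0.44 (-0.03 to 0.85) with the first draw. A single cell gave 21.4% and 13.5% of its UMIs in dual-alpha cells at 16 and 8 weeks. The regulatory T cell list, which shares Ctla4 and Ikzf2 with it, had medians of 0.52 over 4 genes and 0.42 over 5 genes, and summed to 1288 CPM in dual-alpha and 794 CPM in single-alpha cells at 16 weeks, and 1440 and 1118 CPM at 8 weeks. By the mean over all draws its medians were 0.52, with 5 of 5 members above 0, and 0.20, with 3 of 5. Within Cd4-gated cells only 1 exhaustion gene passed the UMI minimum in each library, with log2 ratios of -0.02 and 0.10. The exhaustion list summed there to 1728 CPM in dual-alpha and 1240 CPM in single-alpha cells at 16 weeks. At 8 weeks the direction was the other, with 1492 and 1604 CPM. The regulatory T cell list summed there to 1949 and 1010 CPM at 16 weeks and to 1397 and 1349 CPM at 8 weeks.

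The median log2 ratio of genes induced by receptor signalling was below 0 in both libraries. With the first draw 5 of 6 were below 0 at 16 weeks and 4 of 5 at 8 weeks, with 2 called lower in each library and medians of -0.32 and -0.18. Of all tested genes 2.43% and 2.02% were called lower in that draw, with medians of 0.03 and 0.04. By the mean over all draws the list had medians of -0.39 and -0.32, with 1 member called lower in each library, against 0.717% and 0.798% of all tested genes. Within Cd4-gated cells 4 of 4 members were below 0 at 16 weeks, with a median of -0.50. At 8 weeks 2 of 4 were above 0, with a median of 0.11, 1 called higher and 1 lower, against 1.64% and 2.25% of all genes tested there. Fos, a subunit of the transcription factor AP-1, had 494 and 637 CPM in dual-alpha and single-alpha cells at 16 weeks and 227 and 403 CPM at 8 weeks. Nr4a1 had 52.9 and 122 CPM at 16 weeks and 82.6 and 128 CPM at 8 weeks, from only 9 and 16 UMIs in dual-alpha cells. Jun, the partner of Fos, had log2 ratios of -0.02 and 0.25.

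The CD3 and proximal signalling genes differed little between the classes. The 14 genes of the CD3 complex and the first signalling steps summed to 8388 CPM in dual-alpha and 8431 CPM in single-alpha cells at 16 weeks, and to 9252 and 8956 CPM at 8 weeks. Cd3e had log2 ratios of 0.02 (-0.15 to 0.18) and 0.08 (-0.07 to 0.22), and Lck, the kinase bound to the co-receptors, -0.08 (-0.36 to 0.18) and 0.02 (-0.24 to 0.26). Cd5, which tunes receptor signalling, had 0.81 (0.40 to 1.19) at 16 weeks and 0.08 (-0.38 to 0.48) at 8 weeks. Receptor segment and constant genes are not in the RNA tables' gene list, so alpha and beta levels could be read only from the receptor libraries.

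Of other lists, follicular helper genes had medians of 0.30 over 1 gene and 0.40 over 4 genes, and Th1 and cytotoxic genes 0.27 over 3 and -0.31 over 5. Within Cd4-gated cells Ccl5 alone of the Th1 and cytotoxic genes passed the UMI minimum, with log2 ratios of -0.33 (-0.73 to 0.02) at 16 weeks and 2.57 (2.22 to 2.92) at 8 weeks. A single cell gave 40.5% of its 121 UMIs in dual-alpha cells at 8 weeks, and without that cell the ratio was 1.85. The list summed there to 1495 CPM in dual-alpha and 1719 CPM in single-alpha cells at 16 weeks, and to 2510 and 1052 CPM at 8 weeks. Proliferation genes had medians of 0.59 over 2 and -0.05 over 3, anergy genes 0.05 and -0.01 over 2 genes each, and genes of the set point and feedback of receptor signalling 0.15 over 5 and 0.01 over 4. No gene of recombination and the alpha locus passed the UMI minimum, with 5 UMIs in dual-alpha cells over the 7 genes in each library. Markers of other cells were sparse. B cell genes summed to 23.5 CPM in dual-alpha and 23.0 CPM in single-alpha cells at 16 weeks, and to 119 and 29.2 CPM at 8 weeks, where 17 of the 23 UMIs in dual-alpha cells were of Cd74, an antigen presentation gene, and Ms4a1, which encodes CD20, was at 0. Acinar genes summed to 147 and 183 CPM at 16 weeks and to 108 and 85.3 CPM at 8 weeks, and myeloid genes to 188 and 214 CPM and to 217 and 216 CPM. Endocrine genes summed to 5.88 and 12.1 CPM at 16 weeks and 5.16 and 6.70 CPM at 8 weeks. Genes of gamma-delta, NK and NKT cells summed to 35.3 and 47.7 CPM at 16 weeks and 51.6 and 51.8 CPM at 8 weeks. Their part in the results was not tested.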

How the data were processed

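The authors deposited, for each age, a matrix of UMI counts per gene and barcode and a table of receptor contigs with counts of reads and UMIs, all raw counts. Per the submitters' processing notes the build was mm10 and Seurat was used, and per the file headers the matrices carry a software version of 3.0.1 with no tool named. Aligner, annotation and barcode filters: not given in the sources used here. The 16-week and 8-week RNA libraries held 2107 and 2043 barcodes with 8183747 and 8659371 UMIs, and the receptor libraries had 5462 and 5160 contigs with 29681 and 33920 UMIs. Age was taken from the labels, and libraries of 1 age were joined by barcode. RNA barcodes with at least 500 genes and at most 10% mitochondrial UMIs were kept, 1934 and 1875.

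Contigs whose chain is given as Multi (17 and 12 productive) were not counted. No doublet caller was run: barcodes with 2 or more productive TRB (235 and 203) were left out by the rule and used for comparison. The Cd4 gate asks for a Cd4 UMI and none of Cd8a or Cd8b1, the Cd8 gate for the reverse. Clones share TRB V, J and CDR3 nucleotides. For capitals in printed sequences, CDR3s were compared with GENCODE M21 segments, allowing 1 mismatch in V followed by at least 5 matches. NOD alleles may differ from that reference. Thinning drew 1700 UMIs a cell with seed 11 and left out 2 and 4 dual-alpha and 48 and 72 single-alpha cells. Log2 ratios had 0.5 UMIs added to each sum, with exact conditional intervals. Where a share was 0, the limit is 3 counts of the total. Genes were named by this rule: at least 200 UMIs in both libraries, the same sign, no cell over 10% of dual-alpha UMIs, then the 10 highest and 10 lowest by the smaller ratio, and the members of 16 lists. The members and lists were chosen with earlier results of these data known. Of 156 different list genes, 150 were found by symbol. The ratio script was tested on simulated data. Python 3.11.15, numpy 2.4.6, pandas 2.3.3, scipy 1.17.1 and matplotlib 3.10.9 were used.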

Additional observations from a re-analysis of the deposited data

Results flagged for a closer look

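Ccl5, which encodes a chemokine of cytotoxic and memory T cells, stood out because the libraries moved in opposite directions with counting intervals that both leave out 0. Its log2 ratio of dual-alpha over single-alpha cells was 0.27 (0.09 to 0.43) at 16 weeks, from 322 and 2740 UMIs, and -0.50 (-0.73 to -0.29) at 8 weeks, from 189 and 2271 UMIs. A single cell gave 25.8% of the dual-alpha UMIs at 16 weeks and 25.9% at 8 weeks. Without that cell, an alternative added after the data were seen, the ratio was -0.15 (-0.35 to 0.04) at 16 weeks and -0.92 (-1.18 to -0.68) at 8 weeks. The highest cell was left out of the dual-alpha class only, so the ratio could only fall, and the 16-week interval then included 0. Within Cd4-gated cells, without their highest dual-alpha cell, the ratio was -0.62 (-1.06 to -0.22) at 16 weeks and 1.85 (1.42 to 2.26) at 8 weeks. The difference between the libraries was not tested.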

How the results depend on the processing

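No paired analysis was possible because each age had 1 library of each kind, and for the same reason no replicate could be left out. Requiring 2 UMIs of the second alpha altered nothing, since all second alphas had that many. Of 108 values other than single genes, 75 stayed within their counting interval or within 1.5 times. The 75 include the 2-UMI alternative of each result, which could not change. Requiring 3 UMIs of the second alpha gave dual shares of 5.07% at 16 weeks and 6.38% at 8 weeks, and only barcodes with up to 6000 RNA UMIs gave 8.24% at 8 weeks and rho 0.69 for J numbers there. The Foxp3 difference was 0.27 points at 16 weeks and -10.5 at 8 weeks with thinned cells, and 5.98 at 16 weeks with only Foxp3 thinned, an alternative added after the data were seen, as were the 6000 UMI limit and the mean over all draws.

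Counts of genes past the fold at 16 weeks, 36 higher and 27 lower, were 1 and 2 at 2-fold, 156 and 123 with a minimum of 100 UMIs, 2946 and 760 with no minimum, 11 and 10 in Cd4-gated cells and 10 and 8 as the mean over all draws. With all UMIs 91 were higher, with another seed 21 and up to 6000 UMIs 18. At 8 weeks, 24 higher and 23 lower became 0 and 1, 119 and 102, 2648 and 811, 8 and 11, and 4 and 9 in the same order, with 43 and 49 from all UMIs and 15 higher up to 6000 UMIs. Of 26 genes followed, 12 took the other sign in at least 1 alternative. Of the called values, Lgals1 had -0.10 at 16 weeks up to 6000 UMIs, Polr2g -0.030 with all UMIs and -0.62 with another seed at 8 weeks, and Ctla4 -0.24 in Cd4-gated cells at 8 weeks. Ccl5 had -0.15 at 16 weeks without its highest dual-alpha cell. The cause was not tested for these, apart from the draw, which alone differed with another seed. Tested genes had medians of 35 and 41 dual-alpha UMIs.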
